A study of Mus musculus with 6 samples.

Results

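The baseline transcript profile of Fezf1-EGFP cells was described in heterozygous mouse embryos. It rests on the 3 arrays labelled Fezf1 +/-, replicates 1 to 3, of the 6 arrays in the series. The cells were sorted by green fluorescence from microdissected main olfactory epithelium at E18.5 (C57BL/6 background), in embryos where a targeted Fezf1 allele expresses EGFP from the gene's own promoter. Every cell profiled therefore also carried the targeted allele and had only 1 intact copy of Fezf1, and no wild-type cells stand beside them. RNA was hybridised to Affymetrix Mouse Gene 1.0 ST arrays. Nothing in the labels ties a replicate to an embryo, a litter or a pool. The sex-linked signals given further on differ between the arrays, so these are not repeat runs of 1 RNA, but how far the SD is a spread between embryos is not known. All means are over these 3 arrays and are followed by the SD (n = 3).

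Fezf1 is a zinc-finger transcriptional repressor of the olfactory epithelium and the forebrain. The epithelium makes olfactory sensory neurons throughout life: basal progenitors give rise to immature neurons that grow an axon to the olfactory bulb, and these become mature neurons with odorant-sensing cilia. A mature neuron typically expresses a single odorant receptor gene out of a very large family. The receptor acts through the G protein subunit Gnal and adenylate cyclase 3 to open a cyclic-nucleotide-gated channel. Sustentacular cells support the neurons and detoxify odorants, horizontal basal cells are reserve stem cells, and Bowman glands secrete mucus.

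Each gene was represented by its brightest probe set among those with 1 gene symbol, which gave 19938 genes. The value is a log2 signal, so 1 unit is a doubling, and it depends on the affinity and background of the probes as well as on the transcript. A gauge of this came from the 999 genes with more than 1 probe set, whose highest and lowest probe sets differed by a median of 0.76 log2, with quartiles of 0.27 and 1.69. The order of genes within such a distance cannot be read as an order of transcript abundance. Over genes, the lower quartile lay between 4.86 and 4.96 on the 3 arrays, the median between 6.47 and 6.48, the upper quartile between 7.92 and 8.02, and the 95th percentile between 9.79 and 9.90. Counts below ask that a gene passes these limits on all 3 arrays. By that rule 4545 genes (22.8%) lay above the upper quartile, 888 genes (4.45%) above the 95th percentile and 4478 genes (22.5%) below the lower quartile. These shares are the background for every count of a gene list.

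The arrays were alike over all genes but 2 of them stood apart in known sets of genes. Pearson's r between arrays across genes, which are not independent replicates, was between 0.988 and 0.990. Replicate 2 carried high signals of lens and retina genes, and replicate 3 carried higher signals of odorant receptors and mature-neuron genes with lower signals of several other cell types. Both are described with their values further on, and the counts that leaving out an array moved by more than 1.5 times are given without it.

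The promoter of Fezf1 is shown first, because EGFP under it decided which cells were sorted. It is set beside 3 mature-neuron genes whose window held a match to the site of Ebf factors, the brightest factor family described below. Each line holds the 250 bases before an annotated start site, read 5′ to 3′ on the gene's strand, from RefSeq with build GRCm38.p6. The windows are chr6:23248265-23248514, minus strand (Fezf1), chrX:71991599-71991848, plus strand (Cnga2), chr16:23930795-23931044, minus strand (Rtp2) and chr17:25716922-25717171, plus strand (Gng13, the more upstream of its annotated starts in that table). Capitals mark matches to CCCNNGGG, the core of the site bound by Ebf (Olf/Ebf) factors, which reads the same on both strands. In Gng13 a pair of overlapping matches is marked.
Fezf1: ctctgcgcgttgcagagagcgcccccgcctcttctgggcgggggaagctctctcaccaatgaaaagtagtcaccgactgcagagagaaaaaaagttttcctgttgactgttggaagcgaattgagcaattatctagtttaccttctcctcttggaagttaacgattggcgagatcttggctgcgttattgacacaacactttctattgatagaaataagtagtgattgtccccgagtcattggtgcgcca
Cnga2: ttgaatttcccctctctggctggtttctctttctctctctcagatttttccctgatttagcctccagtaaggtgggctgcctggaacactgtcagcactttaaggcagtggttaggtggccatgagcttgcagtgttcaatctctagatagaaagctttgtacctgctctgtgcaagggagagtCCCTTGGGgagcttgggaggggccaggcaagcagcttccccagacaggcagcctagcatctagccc
Rtp2: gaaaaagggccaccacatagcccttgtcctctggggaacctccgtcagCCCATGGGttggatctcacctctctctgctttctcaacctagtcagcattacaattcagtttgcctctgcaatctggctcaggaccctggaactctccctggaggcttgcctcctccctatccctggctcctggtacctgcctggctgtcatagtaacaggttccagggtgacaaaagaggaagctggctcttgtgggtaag
Gng13: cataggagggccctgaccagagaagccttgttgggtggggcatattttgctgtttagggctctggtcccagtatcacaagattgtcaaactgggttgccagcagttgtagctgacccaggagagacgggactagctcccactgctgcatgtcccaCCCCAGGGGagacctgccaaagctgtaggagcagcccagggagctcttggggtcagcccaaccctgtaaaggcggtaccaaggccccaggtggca

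The Fezf1 window held no such match and no TAATTA, a core of homeodomain sites that also reads the same on both strands. The match lay 66 bases before the start in Cnga2 and 202 in Rtp2, and the pair in Gng13 began 95 and 94 bases before it. Of 19177 windows of the 15614 genes with a promoter entry, with a single chromosome left out of the search, 13.9% held CCCNNGGG. It was found in 7 of 25 windows of the mature-neuron list (28%) and in 6 of 21 windows of the immature-neuron list (28.6%), where several windows can belong to the same gene. Windows of genes above the 95th percentile held it in 14.2% of cases and windows of genes below the lower quartile in 8.21%. The median GC contents of these groups were 61.6% and 48%, and the part of GC content in the shares was not tested. The 867 odorant receptor windows differed in base composition, with a median GC content of 33.6% against 56.8% over all windows. Of them, 2.65% held CCCNNGGG and 18.1% held TAATTA, against 4.03% of all windows for the latter. The receptors above the upper quartile on all 3 arrays had only 32 windows, of which 1 held CCCNNGGG and 0 held TAATTA. A match is a description of letters and not evidence of a binding site.

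The 5 genes chosen as markers of the sorted cells were bright. The cells were sorted by EGFP from the Fezf1 promoter, so a high Fezf1 signal is not a separate check. Omp, the cytoplasmic protein that defines mature olfactory neurons, read 11.84, 11.82 and 12.12 on replicates 1, 2 and 3, which placed its mean 72nd of 19938 genes. Fezf1 itself read 11.25, 11.12 and 11.30, with a mean of 11.23 ± 0.09 and a rank of 191. Both lay above the 95th percentile on every array. Cnga2, the main subunit of the transduction channel, read 10.67, 10.75 and 11.15. Gnal, the olfactory G protein subunit, read 9.69, 10.08 and 10.56, and Adcy3, adenylate cyclase 3, read 9.43, 9.43 and 9.92. All 5 markers lay above the upper quartile on the 3 arrays, and all 5 were highest on replicate 3. Fezf2, the closest relative of Fezf1 and a forebrain gene, read 5.84, 5.73 and 5.45, below the array medians.

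**Figure D1:**
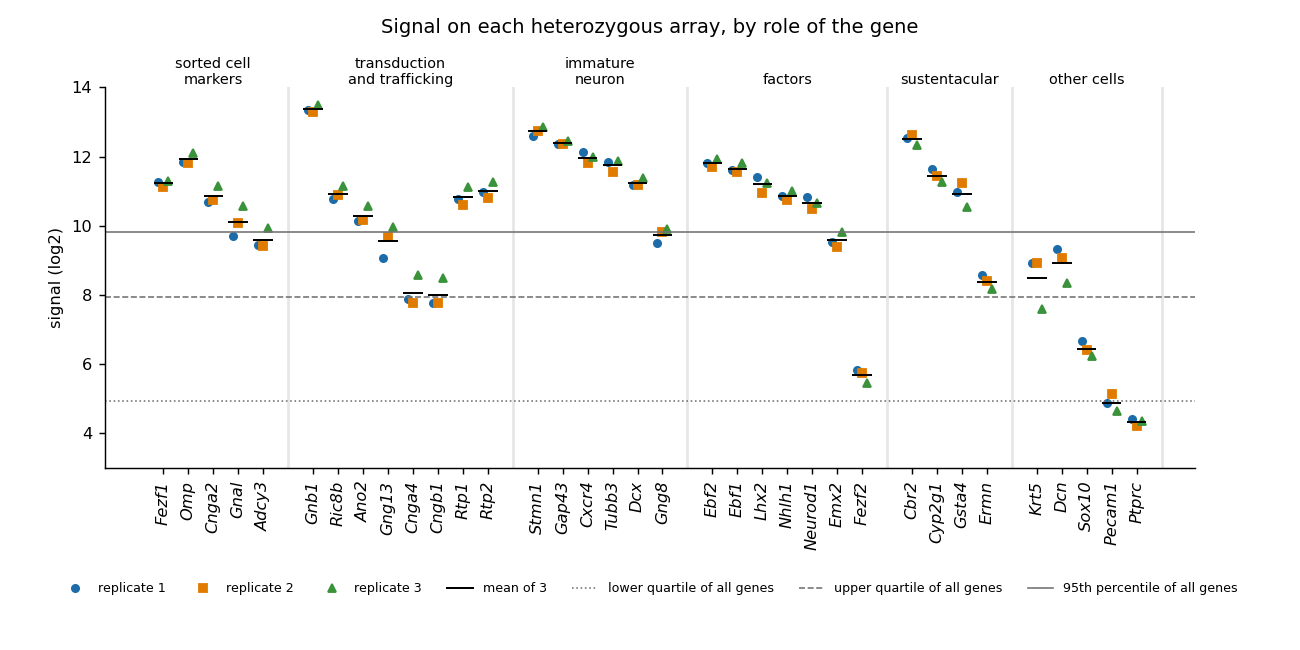
Log2 signal (vertical axis) of single genes on the 3 heterozygous arrays (coloured symbols) with the mean of the 3 (black bar), ordered by role, and the quartiles and the 95th percentile of all genes as horizontal lines. Omp, Fezf1 and Cnga2 lie above the 95th percentile with Ebf1, Ebf2, Lhx2 and Cbr2, while Fezf2, Pecam1 and Ptprc lie low.

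The transduction machinery was present beyond these markers but at unequal signals. Of 21 measured genes of the pathway, 13 lay above the upper quartile (background 22.8%) and 1 below the lower quartile. Gnb1, a G protein beta subunit of many cell types, was the sixth brightest gene of all at 13.36, 13.27 and 13.48. Gng13, the gamma subunit of the olfactory G protein, read 9.07, 9.67 and 9.96, and Ric8b, a chaperone of Gnal, read 10.77, 10.88 and 11.14. The channel's other subunits were dimmer than Cnga2: Cnga4 read 7.87, 7.77 and 8.57 and Cngb1 read 7.76, 7.77 and 8.48, so both passed the upper quartile on replicate 3 alone. Ano2, the calcium-activated chloride channel that amplifies the response, read 10.13, 10.16 and 10.58. Slc12a2, the transporter that loads chloride into the neuron, read 11.03, 11.03 and 10.94, with little difference between arrays. The enzymes that end the response were lower, with Pde1c at 8.18, 8.32 and 8.56 and the receptor kinase Grk3 at 5.07, 5.19 and 5.09. Rtp1 and Rtp2, which carry receptors to the cell surface, read 10.77, 10.61 and 11.12 and 10.98, 10.79 and 11.25, whereas Rtp4 read 5.85, 5.24 and 5.38.

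Mature and immature neuron genes were both bright. Of 23 measured mature-neuron genes, 17 lay above the upper quartile and 9 above the 95th percentile (background 4.45%), with a list median of 9.84. This list shares genes with the transduction list, among them Gng13 and Ano2. It also holds Nrp1 and Slc17a6, which are counted again below with axon guidance and synapse genes. Stoml3, a protein of olfactory cilia, read 11.61, 11.78 and 12.22, and Umodl1 read 9.66, 9.97 and 10.28. The dimmest members were Kirrel3, an adhesion molecule that sorts axons, at 7.23, 7.37 and 7.57, and Cidea at 6.74, 6.80 and 7.45. Of 22 immature-neuron genes, 17 lay above the upper quartile and 13 above the 95th percentile, with a median of 10.62. Gap43, the growth-cone protein, read 12.35, 12.36 and 12.45, and the tubulin regulators Stmn1 and Stmn2 read 12.60, 12.74 and 12.86 and 12.49, 12.30 and 12.50; these are among the 30 brightest genes. Cxcr4, the chemokine receptor of young olfactory neurons, read 12.12, 11.80 and 11.99. Dcx read 11.18, 11.16 and 11.39 and Gng8, the gamma subunit of immature neurons, read 9.49, 9.81 and 9.89. The 5 that did not pass on all arrays were Stmn4 and Nhlh2, close to the quartile, Nrn1, and, dimmest, Dbx1 at 5.95, 6.06 and 5.91 and Chl1, an adhesion molecule of growing axons, at 4.56, 4.36 and 4.48.

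The list median of progenitor genes lay below those of the neuron lists. Of 16 measured, 10 lay above the upper quartile and 4 above the 95th percentile, with a list median of 8.50. Sox11, a factor of newborn neurons, read 11.73, 11.58 and 11.73, Neurod1, which drives neuronal differentiation, read 10.83, 10.47 and 10.67, and Insm1 read 10.57, 10.34 and 10.63. Neurog1, which specifies the neuronal precursors, read 7.72, 7.46 and 7.82. The proliferation genes Top2a and Mki67 read 8.76, 9.50 and 9.33 and 6.86, 7.12 and 7.63, and the stem-cell gene Lgr5 read 5.73, 5.54 and 5.60. Top2a has more than 1 probe set and averaged 6.15 over them in place of 9.20. In a bulk sample, a lower signal from fewer cells of a type and from less RNA per cell cannot be told apart.

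Genes of neuronal function passed the upper quartile more often than all genes did (background 22.8%). Of 33 axon guidance genes, 21 lay above the upper quartile, led by the adhesion molecules Cntn4 at 11.46, 11.59 and 11.89 and Ncam1 at 11.38, 11.30 and 11.56. Nrp1 and Nrp2, the semaphorin co-receptors that order axons in the bulb, had means of 10.18 ± 0.19 and 9.81 ± 0.09. The netrin receptor Dcc, at 6.94, 7.16 and 6.79, was among the dimmer members. Of 21 cilium genes, 15 lay above the upper quartile, with Bbs9, a part of the complex that sorts cargo into cilia, the brightest at 10.22, 10.08 and 10.26, and all 21 were highest on replicate 3. Of 16 synapse genes, 8 lay above the upper quartile. Slc17a6, the glutamate transporter VGLUT2 that fills the vesicles of these neurons, read 10.59, 10.53 and 11.03, whereas its relative Slc17a7 read 5.93, 5.71 and 5.85.

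Sustentacular genes were also bright. Of 15 measured, 9 lay above the upper quartile and 3 above the 95th percentile. Cbr2, a carbonyl reductase, was the 22nd brightest gene at 12.55, 12.62 and 12.33. Cyp2g1, an olfactory cytochrome P450, read 11.64, 11.44 and 11.26, and Gsta4, a glutathione transferase, read 10.96, 11.23 and 10.54. The dimmest member was the marker Cyp1a2 at 4.80, 5.32 and 5.21, and Lgals3 read 6.95, 7.29 and 6.77. The 15 Bowman gland genes were not bright as a list: 2 lay above the upper quartile and 4 below the lower quartile, with a median of 6.65, and the brightest was Bpifa1, a secreted airway protein, at 10.89, 12.66 and 11.37. The gland markers Aqp5 and Sox9 read 7.69, 7.86 and 7.65 and 7.64, 7.65 and 7.28.

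Other cell types read lower. None of 10 horizontal basal cell genes passed the upper quartile on all 3 arrays, although Krt5 and Krt14, the keratins that define these cells, read 8.93, 8.92 and 7.58 and 8.33, 8.03 and 7.15; without replicate 3, 2 of the 10 passed on the remaining arrays. Of 14 mesenchyme and bone genes, 1 passed, namely the proteoglycan Dcn at 9.33, 9.07 and 8.35; 3 passed without replicate 3. None of 10 endothelial genes passed, and their means ran from 4.24 to 6.02. None of 14 myeloid genes passed, 6 of them lay below the lower quartile, and Ptprc (CD45) read 4.42, 4.20 and 4.36. Of 9 ensheathing glia genes 1 passed (2 without replicate 3), and Sox10 read 6.66, 6.42 and 6.24. Of 13 microvillar and tuft cell genes 2 passed, Coch and Il33, with means of 9.14 and 8.15. The markers Trpm5 and Pou2f3 had means of 4.95 ± 0.05 and 5.26 ± 0.05. Foxi1, also a marker of these cells, was brighter at 7.30, 7.47 and 7.14. The part of other cell types in the sustentacular and gland signals was not tested.

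**Figure D2:**
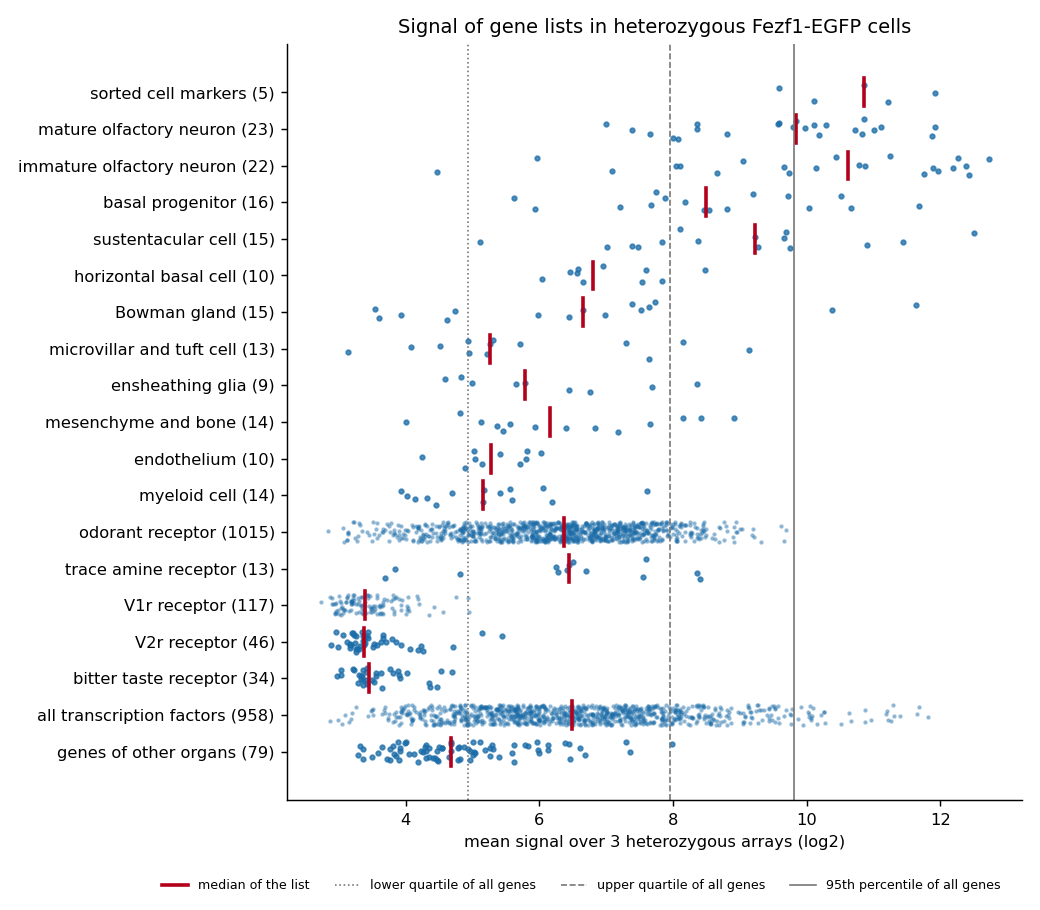
Mean log2 signal over the 3 heterozygous arrays (horizontal axis) of each gene (blue points) in each list, with the number of genes measured in brackets, the list median (red bar), and the quartiles and the 95th percentile of all genes (vertical lines). Neuron and sustentacular lists lie to the right, odorant receptors are spread around the middle, and V1r, V2r and bitter receptors lie below the lower quartile.

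As a reference for low signals, 79 genes of liver, gut, germ cells, eye, muscle, kidney, skin, pituitary and milk were measured. None passed the upper quartile, 43 lay below the lower quartile (background 22.5%), and their median was 4.67. Albumin (Alb) read 4.57, 4.42 and 4.32 and the sperm protamine Prm1 read 4.76, 4.69 and 4.56. Without the lens and retina list, 68 genes remained, with a median of 4.49, a 90th percentile of 5.87 and a highest mean of 6.60, the latter for muscle myoglobin (Mb) at 6.43, 6.64 and 6.73. A signal up to about that level was thus also reached by genes of organs that the sort should not hold.

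Odorant receptors, the largest gene family of the mouse, filled the middle of the range. Of 1015 measured, 46 (4.53%) lay above the upper quartile on all 3 arrays, against 22.8% of all genes, and none above the 95th percentile, against 4.45%. Another 104 (10.2%) lay below the lower quartile, against 22.5%, so 865 were neither. The count below rose to 161 without replicate 3. With quartiles taken over all probe sets, which lie lower, 72 lay above and 47 below. The median over receptors was 6.37, and 670 of them (66.0%) exceeded the 90th percentile of the genes of other organs without the lens and retina list, as did 59.6% of all genes. With the lens and retina list kept, that percentile was 6.18. It was exceeded by 564 of the 1015 receptors and by 10886 of the 19938 genes, which are similar shares. Receptors are similar in sequence, so a probe set for a receptor may also bind transcripts of others, and single values are uncertain to that extent. In tissue each receptor is made by a small share of neurons, so a bulk signal averages over cells that do and do not make it.

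The brightest receptors differed little from each other. Olfr1006 read 9.53, 9.59 and 9.94, Olfr513 read 9.24, 9.56 and 10.16 and Olfr1274 read 9.85, 9.48 and 9.52. Olfr1274 was the exception in being highest on replicate 1. The highest and the 20th receptor by mean differed by 0.98, against a median of 0.76 and an upper quartile of 1.69 for probe sets of the same gene. Olfr1006 has more than 1 probe set, and its mean fell to 8.97 when they were averaged. Next came Olfr827 at 8.86, 9.37 and 9.74, Olfr1176 at 9.14, 8.98 and 9.52 and Olfr1174 at 9.25, 9.01 and 9.34. The 109 receptors numbered Olfr543 to Olfr693, a range made up mainly of fish-like class I receptors, had a median of 7.03, against 6.34 for the other 906, while 6 (5.50%) and 40 (4.42%) of them lay above the upper quartile. Chromosomes 2 and 7, which hold 272 and 219 of the receptors in RefSeq's assignment, had medians of 6.03 and 6.56. The lowest receptor, Olfr834, read 2.75, 2.76 and 2.98.

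**Figure D3:**
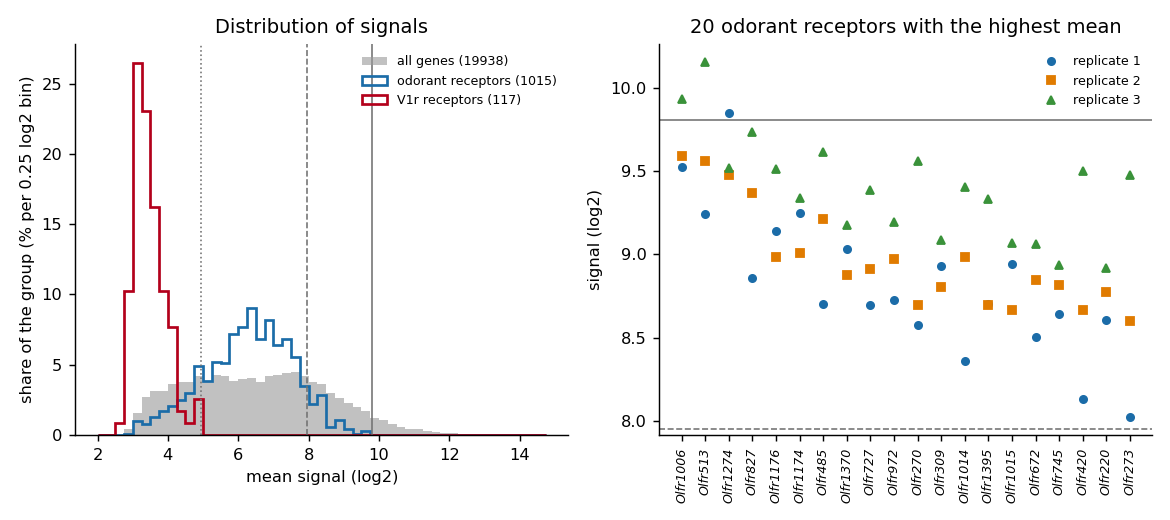
Left, share of each group (percent per bin of 0.25 log2) by mean signal for all genes (grey), odorant receptors (blue) and V1r receptors (red), with the quartiles and the 95th percentile of all genes as vertical lines. Right, signal on each array of the 20 receptors with the highest mean, with the upper quartile (dashed) and the 95th percentile (solid) of all genes; replicate 3 is the highest for most of them.

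The odorant receptors also spread widely among the arrays. The median SD of a gene over the 3 arrays was 0.129 over all genes and 0.355 over odorant receptors. Of 502 genes with an SD over 0.5 (2.52% of all genes), 255 were odorant receptors, which is 25.1% of the family and 50.8% of the 502. The family medians were 6.19, 6.21 and 6.67 on replicates 1, 2 and 3, and 806 receptors (79.4%) were highest on replicate 3, against 37.4% of all genes. Centring each array on the median receptor lowered the median SD to 0.249 and the count over 0.5 to 97. Across receptors, Pearson's r between arrays was between 0.926 and 0.954. Examples of wide spread among bright receptors are Olfr640 at 7.69, 8.64 and 9.16, Olfr273 at 8.02, 8.60 and 9.48 and Olfr420 at 8.13, 8.67 and 9.50; each was lowest on replicate 1 and highest on replicate 3.

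Other chemosensory receptors differed by family. Trace amine receptors, which a small population of olfactory neurons uses in place of odorant receptors, had 13 measured members and a median of 6.44, close to that of the odorant receptors, and 8 of them had an SD over 0.5. Taar7e was the brightest at 7.73, 8.63 and 8.87, and Taar9 ranged most widely at 5.59, 5.87 and 7.26; 12 of the 13 were highest on replicate 3. Vomeronasal receptors were at the bottom of the range. Of 117 V1r genes, 115 lay below the lower quartile, and the brightest, Vmn1r228, read 4.64, 4.94 and 5.26. Of 46 V2r genes 43 did, and the brightest, Vmn2r26, read 5.52, 5.23 and 5.59. All 34 bitter taste receptors and all 4 formyl peptide receptors lay below the lower quartile. Among 19 Ms4a genes, which include the receptors of necklace neurons, 14 did, and the guanylate cyclase of those neurons, Gucy2d, read 5.83, 5.87 and 5.82.

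Receptors for hormones, growth factors and transmitters gave a few bright genes among many dim ones. In the chemokine family Cxcr4 stood alone, with 12 of 21 members below the lower quartile and Cx3cr1, a receptor of myeloid cells, next at 6.54, 6.01 and 6.03. Of 30 muscarinic and monoamine receptors, 1 passed the upper quartile, the dopamine receptor Drd2 at 8.07, 8.04 and 8.61. Drd2 is made by olfactory neurons, where it dampens release in the bulb. Of 46 GABA and glutamate receptors, 1 passed, the GABA-B subunit Gabbr1 at 9.24, 9.08 and 9.44; its partner Gabbr2 read 7.66, 7.77 and 8.12. Tgfbr1, a receptor kinase for TGF-beta ligands, read 11.55, 11.36 and 11.64, and the insulin and IGF receptors Insr and Igf1r read 10.20, 10.14 and 10.25 and 10.03, 9.80 and 9.87. Fzd3, a Wnt receptor of growing axons, read between 9.93 and 10.06, and Adgrl3, a latrophilin, read 9.85, 9.94 and 9.99. None of 47 neuropeptide receptors and none of 4 Notch receptors passed; Notch1 read 8.08, 8.08 and 7.67, and 1 of the 4 passed without replicate 3. Among ion channels, the sodium channel Scn9a (Nav1.7), which olfactory neurons need for transmission, was the brightest of 90 potassium and sodium channel genes at 10.55, 10.49 and 10.79.

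Transcription factors, taken as families by gene symbol, passed the upper quartile less often than all genes, although several known from olfactory neurons were bright. Of 958 measured, 154 (16.1%) lay above the upper quartile against 22.8% of all genes. Above the 95th percentile lay 29 (3.03%), against 4.45% of all genes. The counts depended on the 341 Zfp genes in the set, of which 47 (13.8%) and 3 (0.88%) passed these limits. Of the other 617, 107 (17.3%) and 26 (4.21%) passed. The Ebf factors, whose core site is marked in the windows of Cnga2, Rtp2 and Gng13 above, were among the brightest. Ebf2 read 11.82, 11.70 and 11.94, Ebf1 read 11.60, 11.56 and 11.80 and Ebf3 read 11.44, 11.15 and 11.35. All 4 family members passed the upper quartile. By mean, Sox11 (11.68) stood between Ebf2 and Ebf1, and Jun (11.39) above Ebf3. Fezf1 was the eighth brightest factor by mean, 0.59 log2 below Ebf2. That distance is under the median of 0.76 for probe sets of the same gene, so these places are not an order of abundance. Lhx2, the LIM-homeodomain factor needed for olfactory neurogenesis and receptor choice, read 11.40, 10.95 and 11.24, and its cofactor Ldb1 read 10.26, 10.26 and 10.29. Id4, an inhibitor of helix-loop-helix factors, read 11.46, 11.10 and 11.34, and Nhlh1, a helix-loop-helix factor of immature neurons, read 10.86, 10.74 and 11.01. Atf5, which acts in the feedback that stabilises receptor choice, read 10.79, 10.73 and 11.12, and Emx2, a homeodomain factor that promotes receptor expression, read 9.54, 9.40 and 9.81. Of 21 genes of receptor choice and feedback, 19 passed the upper quartile and 10 the 95th percentile; the exceptions were Ddit3 at 7.37, 7.29 and 7.49 and Dnmt3b at 5.65, 5.91 and 5.68.

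The Hox and Pou families of homeobox genes were low. None of 37 Hox genes passed the upper quartile and 21 lay below the lower quartile; the brightest, Hoxa4, read 6.58, 6.52 and 6.65. Of 11 Pou genes, none passed. Other homeobox families held brighter members. Of 35 Emx, Dlx and Msx genes 3 passed (8.57%), and of 25 paired homeobox genes 3 passed (12%), against 22.8% of all genes. Among them, Otx2 read 9.42, 9.79 and 9.23 and Dlx5 read 9.21, 9.01 and 9.15. In each of these families 8.57% and 8% lay below the lower quartile, against 22.5% of all genes. Of 43 bZIP factors 16 passed, including Jun at 11.49, 11.42 and 11.27, Fos at 11.03, 11.05 and 10.82 and Cebpg at 11.38, 10.95 and 11.31. Of 19 immediate early and stress genes 11 passed, with Dusp1 at 11.91, 11.79 and 11.49, Nr4a1 at 9.87, 10.41 and 9.93, Npas4 at 5.46, 5.41 and 5.24 and the heat shock gene Hspa1a at 7.91, 8.07 and 7.69.

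The brightest genes included general cell machinery and neuronal genes. Eef1a1, the translation elongation factor, read 13.94, 13.83 and 13.86, the neuronal alpha-tubulin Tuba1a read 13.71, 13.79 and 13.81 and Actb read 13.67, 13.55 and 13.53. Of the 30 brightest, 5 were ribosomal proteins and none an odorant receptor, and the first and the 30th differed by 1.80. Fstl5, a secreted follistatin-like protein, read 12.78, 12.76 and 12.92, and Dpysl2, a semaphorin effector, read 12.48, 12.34 and 12.51. Baiap2l1 stood first at 14.05, 14.23 and 14.19, but its other probe sets had means of 11.58 and 7.40, so the place rests on a single probe set. Several others of this group, such as Rpl10, Rpl21, Ppia and Hk1, have probe sets that can share sequence with processed copies; the 2 probe sets of Hk1 had means of 12.62 and 8.37. The SD of the 30 was small, with a median of 0.088 and a maximum of 0.374, the latter for the small nuclear RNA Rn7sk. By family, 40 of 69 ribosomal protein genes, 29 of 98 respiratory chain genes and 11 of 48 proteasome genes lay above the 95th percentile.

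Differences between the 3 arrays fell in recognisable sets of genes. Replicate 2 had 71 genes more than 1 log2 unit above both other arrays, against 1 for replicate 1 and 45 for replicate 3. All 15 measured crystallins, the proteins of the eye lens, were highest on replicate 2 and 11 of them by more than 1 unit; their medians were 5.30, 7.82 and 5.10 on replicates 1, 2 and 3. Cryaa read 5.49, 11.42 and 5.18 and Cryba1 read 3.79, 9.90 and 3.88. The photoreceptor gene Rbp3 read 4.60, 7.73 and 5.57, the retinal factors Crx and Rax read 4.65, 6.89 and 4.88 and 5.17, 7.25 and 5.55, and the pigment-cell gene Pmel read 5.89, 7.61 and 5.30. Of the 11 genes of the lens and retina list, 9 were highest on replicate 2. Of the 19 eye genes examined that are not crystallins, 13 were more than 1 unit above both other arrays on replicate 2. The list of 11 overlaps with these 19 and with the crystallins, so the counts are not separate. In 4 photoreceptor genes, Rcvrn, Gnat1, Pde6b and Opn1mw, replicate 2 was less than 0.1 above the others or below them, as with Gnat1 at 4.90, 4.84 and 4.93. The eye genes outside the lens and retina list were chosen after their values were seen. The median of the lens and retina list was 4.86, 7.05 and 4.88 on replicates 1, 2 and 3. With each gene averaged over arrays first, the list median was 5.97, and 5.08 without replicate 2. The airway mucin Muc5b was also highest there, at 6.89, 8.45 and 6.80, and so was the collagen Col1a2 at 8.11, 9.25 and 7.08. The median deviation of this array from the gene means was -0.10 for mature and -0.10 for immature neuron genes and 0.21 for sustentacular genes.

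Replicate 3 had higher signals of mature-neuron genes and lower ones of several other cell types. All 23 mature-neuron genes and 18 of 21 transduction genes were highest on it, against 37.4% of all genes. These lists share genes, among them Gng13, Cnga4, Cngb1, Ano2 and Pde1c, so the counts are not separate. The median deviation of the array from the gene mean was 0.29 for mature-neuron genes and 0.33 for odorant receptors, and it was -0.23 for sustentacular, -0.35 for horizontal basal, -0.31 for mesenchymal and -0.24 for endothelial genes. All 10 horizontal basal genes were lowest on it, against 34.0% of all genes. Immature-neuron genes shifted by 0.08 and progenitor genes by -0.01. Of the 45 genes more than 1 unit above both other arrays on replicate 3, 40 were odorant receptors and 4 trace amine receptors. Of the 14 that were more than 1 unit below both, Sparc, a matrix protein, read 8.39, 8.66 and 7.18 and Itm2a read 8.49, 8.57 and 7.01. Replicate 1 had 32 genes more than 1 unit below both others, 20 of them odorant receptors. The part of these shifts in the receptor levels was not tested.

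**Figure D4:**
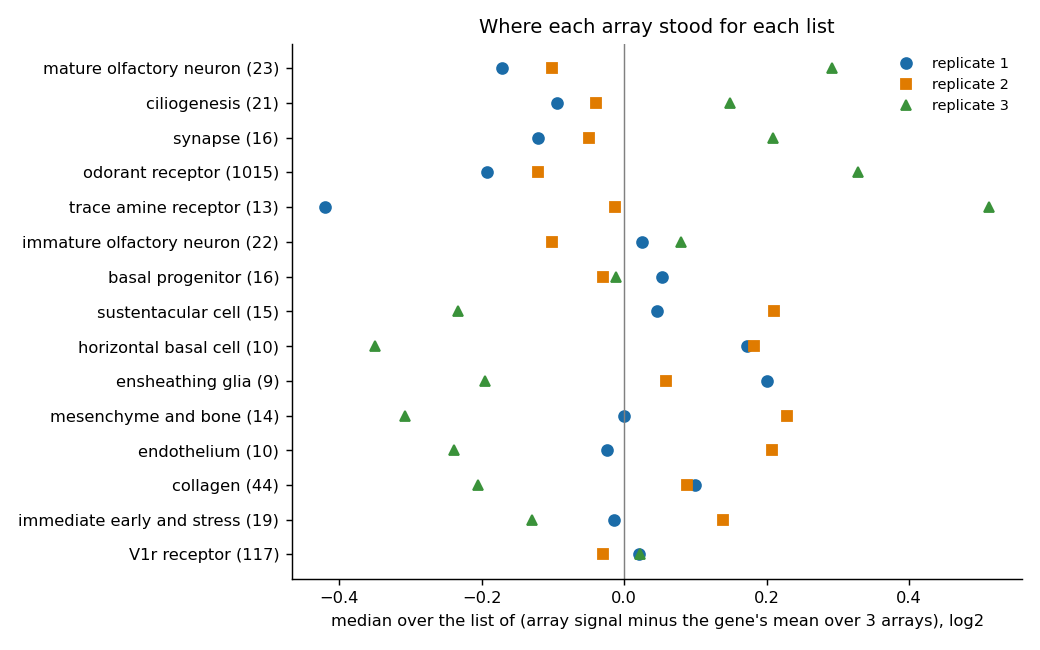
Median over each list of the array's log2 signal minus the gene's mean over the 3 arrays (horizontal axis), for replicates 1 to 3 (coloured symbols), with the number of genes in brackets. Replicate 3 lies at 0.29 for mature-neuron genes and 0.33 for odorant receptors and at -0.35 for horizontal basal genes, while V1r receptors show almost no shift.

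Sex-linked genes differed as well. Xist, made from the inactive X chromosome in females, read 8.90, 10.23 and 4.67. The Y-linked genes Eif2s3y, Uty and Kdm5d read 7.94, 5.56 and 8.54, 7.37, 4.60 and 7.93 and 6.78, 4.66 and 6.65. Replicate 2 thus had high Xist with low Y-linked signals, replicate 3 the reverse, and replicate 1 high signals of both. The widely spread genes also included a pair of small non-coding RNAs, Rmrp, the RNA of RNase MRP, at 8.55, 9.95 and 10.32 and Rny3 at 8.66, 9.37 and 10.08.

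**Figure D5:**
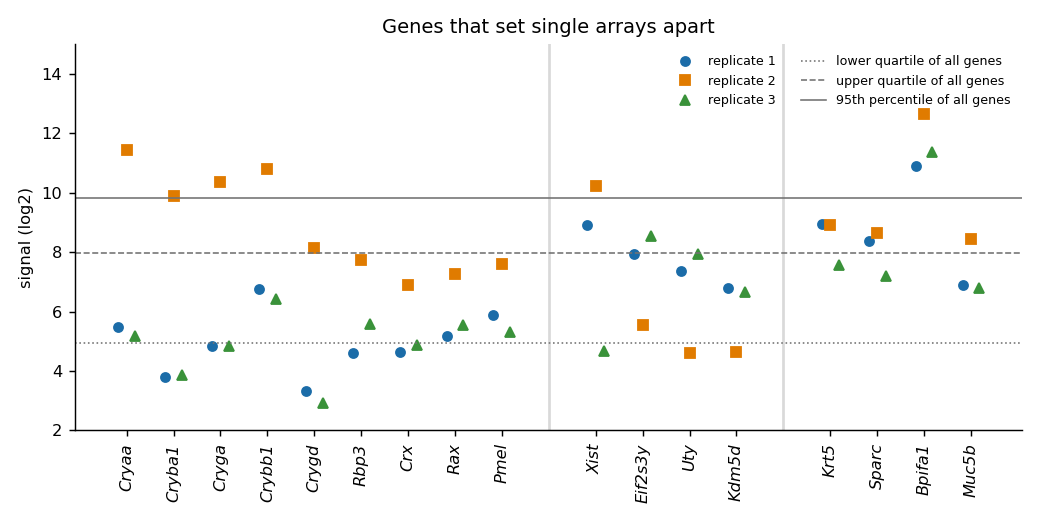
Log2 signal (vertical axis) on the 3 heterozygous arrays (coloured symbols) of lens, retina and pigment-cell genes (left), X- and Y-linked genes (middle), and basal cell, matrix and secreted genes (right), with the quartiles and the 95th percentile of all genes as lines. The eye genes drawn here, chosen among those with large differences, are higher on replicate 2 than on both other arrays, and replicate 1 is high for Xist and for the Y-linked genes alike.

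Outside the odorant receptors, 247 genes had an SD over 0.5, and 175 of them were highest on replicate 2. With genes split at the quartiles of their means, from the lowest to the highest group, the median SD was 0.113, 0.153, 0.141 and 0.116, and 58, 196, 184 and 64 genes had an SD over 0.5. Transcription factors had a median SD of 0.140, with 12 of 958 over 0.5. Among genes above the upper quartile of means, the widest spread was that of Crybb1 at 6.76, 10.79 and 6.43, followed by Col1a2. Olfm5 followed at 10.47, 12.07 and 10.18; as with the crystallins, replicate 2 was the high one.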

How the data were processed

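Cells sorted from heterozygous embryos were profiled on 3 arrays, grouped by the genotype and title in the labels. The other 3 columns of the table hold null embryos and were not analysed here. Per the labels' protocols, 100 ng of total RNA from a Qiagen column kit was made into biotinylated target. The authors deposited 1 log2 signal for each probe set and array. The submitters' processing notes name GCRMA and Affymetrix Expression Console; their order, versions and any filter are not given in the sources used here. Base 2 was assumed for the logarithm because values ran from 2.22 to 14.5, and the natural log of a 16-bit reading cannot exceed 11.1. GCRMA subtracts an estimated background, which sets the lowest values. Background and saturation of single probes were not examined.

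Of 35557 probe sets, 21789 had 1 gene symbol in the platform annotation of 2016, 1621 had several and 12147 had none or were not listed there. By Entrez number, 21698 probe sets took the current RefSeq name (GRCm38.p6). The probe set with the highest mean represented a gene. No value was rescaled or filtered. Signals were described by means, SDs and counts against the quartiles of each array; there was no contrast and no test. The number of arrays, 3, limits the precision. Python 3.11.15, numpy 2.4.6, pandas 2.3.3 and matplotlib 3.10.9 were used, and the counting was checked on simulated data.

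The genes and lists were chosen with earlier results of these data known. Named genes were the 5 markers and Fezf2, the 30 brightest genes, the 20 brightest odorant receptors and 25 brightest factors, the brightest 5 of each other receptor family, 2 of each factor family and 3 of other families, up to 6 brightest and 2 dimmest members of each list, the 20 with the largest SD above the upper quartile and the 10 dimmest. Others, among them the eye genes, Rmrp, Ebf4, Taar9, Itm2a, Gnat1 and single list members, were named after their values were seen. Alternatives were quantile normalisation, centring, quartiles over all probe sets, averaging of probe sets, a filter on low genes and leaving out each array.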

Additional observations from a re-analysis of the deposited data

How the results depend on the processing

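Of 70 recomputed counts and spreads, 65 stayed within 1.5 times their value. Quartiles taken over all probe sets, which lie lower, left 2864 genes below the lower quartile, 72 odorant receptors above the upper quartile and 47 below the lower. Leaving out single arrays gave 105 to 161 receptors below the lower quartile, the highest without replicate 3, and 47 to 69 above the upper quartile, the highest without replicate 1. Among genes with a mean above the median, 248 had an SD over 0.5. Centring each array on the median odorant receptor, added after seeing the data, left 97 of 255 receptors over that SD. Quantile normalisation and centring keep the order of genes within an array, so the counts past a quartile stayed at their values by construction. Of 2640 gene levels, 23 moved by more than their SD, all under averaging of probe sets. The largest shift was 3.11 log2 for Baiap2l1. Leaving out an array cannot move a mean of 3 by more than its SD. Centring keeps the means, so neither setting could have counted as a move. Of 486 list medians 19 moved. No paired analysis was possible because a single group was described. Signals up to 6.60, above the median odorant receptor, were also reached by genes of other organs, so low values limit what can be said of dim genes.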

Other observations

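Signals of probe sets for microRNA genes, which read precursors rather than mature molecules, were low: of 291 such genes, 189 lay below the lower quartile on all 3 arrays and 3 above the upper quartile, with a median of 4.10. The brightest were Mir692-1 at 9.16, 9.23 and 8.94 and Mir346 at 8.74, 8.50 and 8.33 on replicates 1, 2 and 3. Mir200a and Mir200b, members of a family made in olfactory neurons, read 8.21, 7.06 and 7.50 and 7.99, 6.88 and 7.06, highest on replicate 1 in both cases.

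Some probe sets without a place in the gene ranking also gave high signals. Of 12147 probe sets with no symbol here, 490 lay above the 95th percentile of genes on all 3 arrays. That share was close to the 4.45% of all genes. Their median was 4.85 and their highest mean 14.3. Of 1621 probe sets with several symbols, 352 lay above that percentile, a larger share than among genes. Their median was 6.22 and their highest mean 14.5. The ranking of single genes leaves both kinds of probe set out.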
